A study of Mus musculus with 12 samples.

Results

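The genes described here encode selenoproteins, and 10 of them were followed: Selenow, Selenop, Selenof, Selenot, Gpx1, Gpx3, Gpx4, Txnrd1, Txnrd2 and Dio1. They were chosen by name, because Selenow read far higher in formalin-fixed paraffin-embedded (FFPE) than in fresh-frozen (FF) tissue of both organs. The difference between FFPE and FF arrays is therefore given as a description, with no test. The 10 genes are represented by 16 probe sets among 17097 genes with a probe set, and each gene is read from the brightest of its probe sets, averaged across arrays. All 10 were among the 13073 genes tested, which reached the array median in at least 3 arrays. Dio1 passed that filter through its 6 liver arrays alone.

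The 12 arrays covered FFPE and FF liver and FFPE and FF brain of male BALB/c mice aged 10 weeks, with 1 array for each tissue and preservation at each of 3 times after death. Organs were collected at death (0 h), or from bodies held for 3 h at room temperature or for 18 h at 4 °C, so time and temperature cannot be told apart. FF pieces were kept in RNAlater. FFPE pieces spent 24 h in 10% formalin, were stored as blocks for 7 d and were cut at 10 µm. FFPE RNA was amplified with a whole-transcript kit and FF RNA with a 3' in vitro transcription kit, so preservation and kit cannot be told apart. How many animals were used, and which lobe or brain region, is not stated in the labels, and no condition had a replicate.

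Selenoproteins carry selenocysteine, which is inserted at a UGA codon that would otherwise end translation. A stem-loop in the 3' untranslated region, the SECIS element, and a dedicated elongation factor direct this reading. Liver makes most of the selenium carrier of plasma, Selenop, and brain takes it up through a receptor, which keeps brain selenium high when supply is short. Most of the enzymes of the family work in redox reactions, as peroxidases, thioredoxin reductases or deiodinases.

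Levels below are log2 intensities after RMA, the authors' array normalization, and differences are on the log2 scale. Array medians were 4.8 to 4.89 in FFPE and 4.65 to 4.68 in FF. Hepatocyte markers averaged 12.24 to 12.45 in liver, and neuron markers 8.97 to 9.84 in brain against 4.45 to 4.57 in liver. Of the 18 measured hepatocyte markers 17 were highest at 0 h among the FF brain arrays, and Ttr, also a choroid plexus gene, was lowest there (8.68, 12.72 and 12.21). The means of the list were 6.97, 5.10 and 4.96 at 0, 3 and 18 h in FF brain and 5.13, 4.86 and 4.80 in FFPE brain. Their summed linear intensity was 92036 to 106866 in liver, against 894 to 6345 in FFPE brain and 3737 to 7268 in FF brain. The sums include Ttr, which read 5.77, 12.52 and 12.03 at 0, 3 and 18 h in FFPE brain. In both brain series the sum was lowest at 0 h, where Ttr was lowest. The brain sums therefore do not measure hepatocyte transcripts alone. The 3' control probe set of Gapdh minus its 5' one, a measure of RNA and labelling quality, was 1.04, 1.63 and 1.77 in FFPE liver and 0.03, 0.82 and 1.14 in FF liver. In brain it was 1.22 to 1.25 in FFPE and -0.02 to 0.05 in FF. The same difference for Actb ran the other way between preservations, with -0.18 to 0.05 in FFPE and 1.09 to 2.0 in FF, both tissues together.

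The promoters of 4 of the genes are shown because the results turn on Selenow (the preservation difference), Dio1 (a fall at 18 h in liver), Selenop (the liver carrier) and Txnrd1, the only gene of the 10 whose window held the core of the antioxidant response element. Each run is the 250 bases before an annotated RefSeq start (GRCm38.p6), 5′ to 3′ on the gene's strand, with motif matches in capitals. Selenop and Txnrd1 have 3 windows each, and the 1 that holds the motif is shown. Neither lies wholly before its gene. The Selenop window overlaps the gene, which begins at 3270767, and the Txnrd1 window lies inside the gene, which begins at 82833951. The windows are chr7:15922372-15922621 (minus strand) for Selenow, chr4:107307169-107307418 (minus) for Dio1, chr15:3270727-3270976 (plus) for Selenop and chr10:82858956-82859205 (plus) for Txnrd1.
Selenow: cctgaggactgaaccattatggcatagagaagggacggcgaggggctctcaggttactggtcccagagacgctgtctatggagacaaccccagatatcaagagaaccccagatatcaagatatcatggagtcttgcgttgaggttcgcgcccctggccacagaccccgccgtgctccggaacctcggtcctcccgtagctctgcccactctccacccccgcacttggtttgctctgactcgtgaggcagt
Dio1: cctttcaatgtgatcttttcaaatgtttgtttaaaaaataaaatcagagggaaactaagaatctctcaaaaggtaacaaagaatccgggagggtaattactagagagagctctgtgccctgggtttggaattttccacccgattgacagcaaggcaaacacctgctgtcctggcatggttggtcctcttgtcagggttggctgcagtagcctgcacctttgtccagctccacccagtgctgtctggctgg
Selenop: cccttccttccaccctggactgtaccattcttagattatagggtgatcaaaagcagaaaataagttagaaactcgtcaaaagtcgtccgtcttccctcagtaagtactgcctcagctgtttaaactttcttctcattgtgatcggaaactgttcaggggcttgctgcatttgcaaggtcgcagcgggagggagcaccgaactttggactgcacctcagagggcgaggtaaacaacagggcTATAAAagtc
Txnrd1: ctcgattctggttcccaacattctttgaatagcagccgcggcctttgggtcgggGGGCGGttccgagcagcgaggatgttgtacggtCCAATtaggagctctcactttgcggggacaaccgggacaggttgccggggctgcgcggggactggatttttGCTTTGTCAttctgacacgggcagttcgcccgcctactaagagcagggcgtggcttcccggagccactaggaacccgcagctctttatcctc

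Both strands were searched for the TATA box TATAAA, the GC box GGGCGG, the CCAAT box CCAAT and the antioxidant response element core TGACNNNGC, the binding core of the oxidative stress factor Nrf2. None of these letters stood in the Selenow and Dio1 windows. The Selenop window held TATAAA from position -10 to -5 before the start, and the Txnrd1 window held the other 3 motifs, with the antioxidant core on the reverse strand. Of the 17 windows of the 10 genes, 2 held TATAAA, 7 GGGCGG, 6 CCAAT and 1 TGACNNNGC. Among all 32536 distinct windows of this length the shares were 12.3%, 33%, 33.8% and 10.2%. These matches are descriptions of sequence, and nothing in the arrays measured factor binding.

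Selenow encodes a small cytosolic thioredoxin-like protein that is abundant in muscle and brain. It read 10.38, 10.01 and 9.39 at 0, 3 and 18 h in FFPE liver and 5.70, 5.63 and 5.16 in FF liver. In FFPE brain it read 11.95, 11.94 and 11.93, and in FF brain 7.72, 7.72 and 7.56. The 4 series did not overlap, and their order was FFPE brain, FFPE liver, FF brain and FF liver. All of these values come from 1 probe set, 1416521_PM_at, the only one of the gene, so probe sets could not be compared. FFPE exceeded FF by 4.43 ± 0.23 in liver and 4.27 ± 0.08 in brain (SD of 3 matched times), which is 21.6-fold and 19.3-fold. Among the 13073 genes tested, that difference ranked 4 from the top in liver and 9 in brain, where the median gene differed by -0.17 and -0.42.

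The tissue difference of Selenow was nearly the same size in both preservations. Liver minus brain was -2.01 ± 0.12 in FFPE (log2 difference ± SE, limma, 3 arrays against 3, Benjamini-Hochberg adjusted p = 5.47e-09) and -2.17 ± 0.12 in FF (adjusted p = 1.81e-09). The SE rests on how far FFPE and FF arrays disagreed in their changes over time, not on the spread of 3 replicates. Among the probe sets that stand for the 10 genes, it was the only one lower in liver in either preservation. In liver it fell at 18 h by 0.77 ± 0.15 (adjusted p = 0.0046), with -0.99 in FFPE and -0.54 in FF. The call was lost without the FFPE liver array at 0 h (-0.58, adjusted p = 0.07). In brain the difference at 18 h was -0.09 ± 0.15 (adjusted p = 0.995). In whole tissue, fewer cells of a type and less RNA per cell cannot be told apart.

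**Figure D1:**
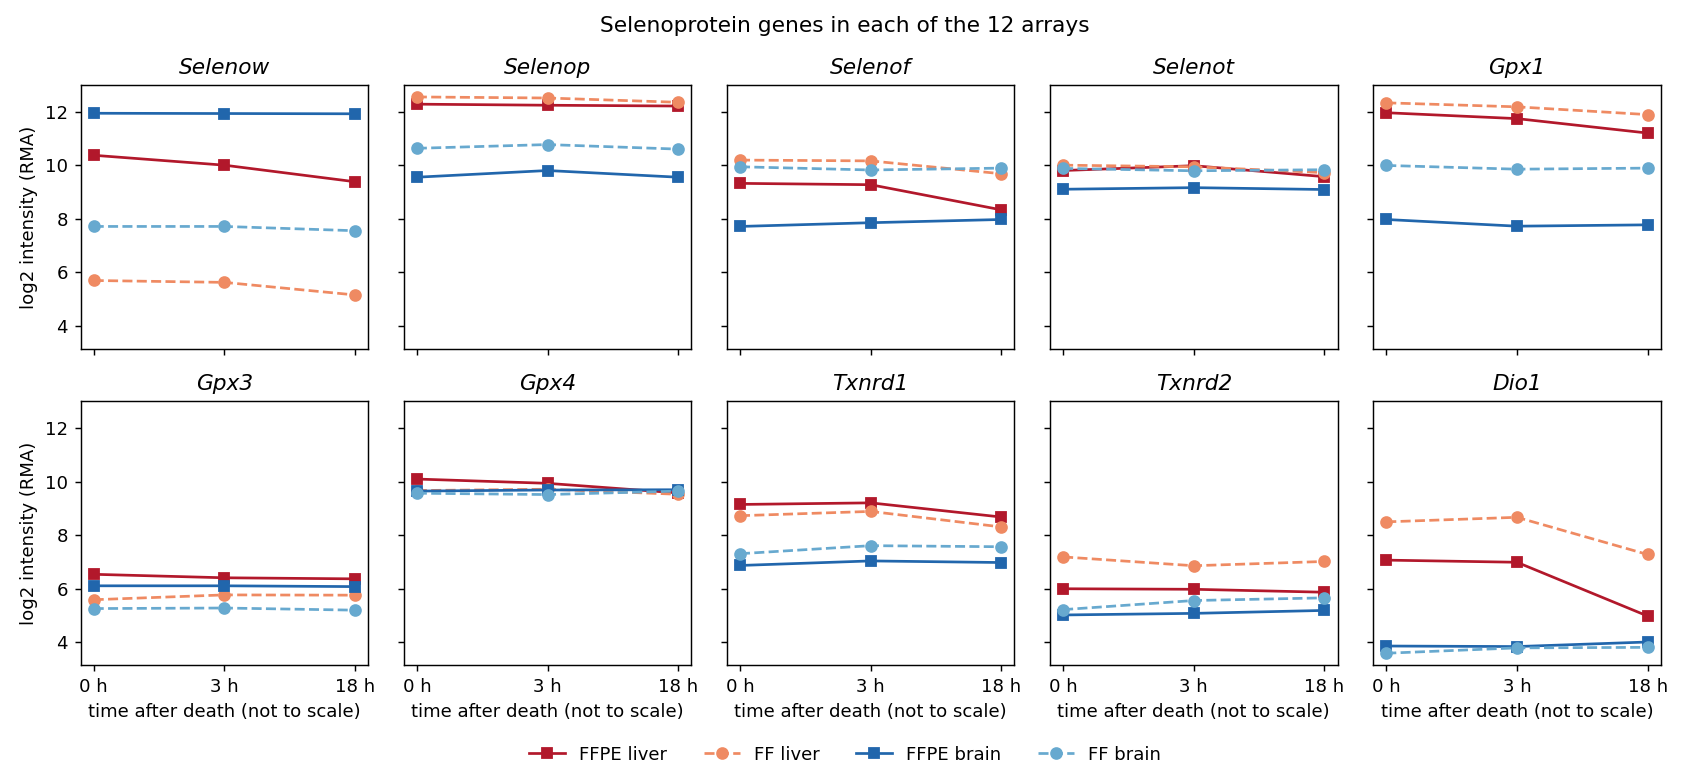
Log2 intensity (vertical axis) of each of the 10 genes at 0, 3 and 18 h after death (horizontal axis, not to scale), 1 point an array. Red marks liver and blue brain, squares with solid lines FFPE and circles with dashed lines FF. Selenow lies between 9.39 and 11.95 in FFPE and between 5.16 and 7.72 in FF, and Dio1 drops in both liver series at 18 h.

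The 5 genes whose values followed Selenow most closely over the 12 arrays, among the genes tested, were Pfkl (liver-type phosphofructokinase, Pearson r = 0.992), Tug1 (a long noncoding RNA, 0.987), Ifitm10 (0.983), Nipal2 (0.983) and Sema6b (a semaphorin, 0.981). The r is a description over arrays that share tissue, preservation and kit. Tug1 averaged 8.33 in FFPE liver, 5.33 in FF liver, 9.79 in FFPE brain and 6.37 in FF brain. Pfkl averaged 7.20 in FFPE liver, 5.16 in FF liver, 7.97 in FFPE brain and 5.94 in FF brain.

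Across the other 9 genes FFPE did not lie to the same side of FF. In liver, the 3 FFPE arrays lay above the 3 FF arrays for 2 of the 10 genes (Selenow and Gpx3) and below them for 4 (Selenop, Selenof, Txnrd2 and Dio1). The shares over all genes tested were 27.8% and 39.4%. In brain 3 of the 10 lay above (Selenow, Gpx3 and Dio1) and 6 below, against 30% and 55% of all genes. A mean difference of at least 2-fold was seen for 1 higher and 3 lower genes in each tissue. Of all genes, 7.98% were higher and 19.2% lower by that much in liver, and 12.1% and 34.1% in brain. The median over the 10 genes was -0.16 in liver and -0.46 in brain, close to the medians of all genes. These counts belong to the contrast that chose the genes, and nothing is read from them.

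**Figure D2:**
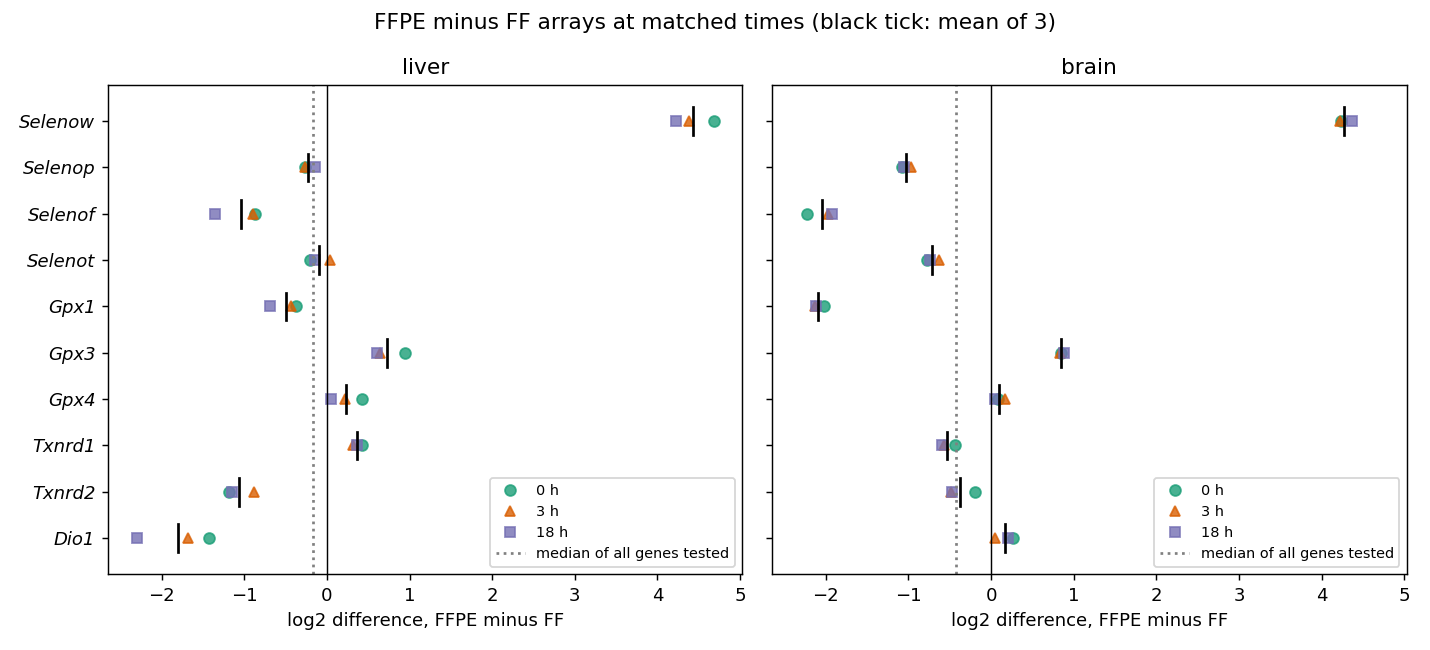
Log2 difference of FFPE minus FF (horizontal axis) for each of the 10 genes (rows) in liver (left) and brain (right). Coloured points are the differences at 0, 3 and 18 h, black ticks their mean, and the dotted line the median of all 13073 genes tested. Selenow stands at 4.22 to 4.68 in the 6 pairs, whereas the means of the other 9 genes, each from its brightest probe set, lie between -2.09 and 0.85.

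Selenop, the plasma selenium carrier with several selenocysteines, passed no comparison between times after death. It read 12.29, 12.25 and 12.22 in FFPE liver and 12.56, 12.52 and 12.36 in FF liver. In FFPE brain it read 9.56, 9.81 and 9.56, and in FF brain 10.64, 10.78 and 10.61. No 2 of these series overlapped. Liver was above brain by 2.61 ± 0.11 in FFPE (adjusted p = 1.21e-10) and 1.80 ± 0.11 in FF (adjusted p = 4.25e-09). FFPE minus FF was -0.23 in liver and -1.03 in brain. At 18 h its difference was -0.14 ± 0.13 in liver (adjusted p = 0.581) and -0.02 ± 0.13 in brain (adjusted p = 0.995). At 3 h it was -0.04 ± 0.13 in liver (adjusted p = 0.971) and 0.20 ± 0.13 in brain (adjusted p = 0.995).

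Of 3 listed receptors that take up Selenop 2 were tested, and these ran in opposite directions between tissues. Lrp8, the receptor for Selenop in brain, was lower in liver, with -1.98 ± 0.20 in FFPE (adjusted p = 1.1e-06) and -1.15 ± 0.20 in FF (adjusted p = 0.000148), where its liver values lay below the array medians. Lrp1, a broad scavenger receptor that also binds Selenop, was higher in liver by 1.66 ± 0.13 in FFPE (adjusted p = 8.8e-08) and 0.74 ± 0.13 in FF (adjusted p = 0.000177). Of all genes tested, 63.5% passed between tissues in FFPE and 74.1% in FF. Neither receptor gene passed the test after death in either tissue. The shares of all genes at 3 and 18 h were 0.245% and 14.5% in liver and 0.0765% and 0.0306% in brain.

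Selenof and Selenot encode proteins of the endoplasmic reticulum with a thioredoxin-like fold. Selenof, a partner of a glycoprotein-folding sensor, read 9.33, 9.28 and 8.34 in FFPE liver and 10.20, 10.17 and 9.69 in FF liver. In brain it read 7.72, 7.86 and 7.98 in FFPE and 9.95, 9.83 and 9.90 in FF. In both liver series the 18 h array was the lowest. Selenof fell in liver at 18 h by 0.75 ± 0.16 (adjusted p = 0.00763), a call lost without the FFPE array at 0 h (-0.63, adjusted p = 0.0866) or at 18 h (-0.52, adjusted p = 0.0639). Its tissue difference was 1.13 ± 0.13 in FFPE (adjusted p = 4.45e-06) and 0.13 ± 0.13 in FF (adjusted p = 0.389), where the liver and brain arrays overlapped.

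Selenot, needed for protein folding in secretory cells, read 9.81, 9.99 and 9.58 in FFPE liver and 10.01, 9.95 and 9.73 in FF liver. Its brain values were 9.11, 9.17 and 9.10 in FFPE and 9.89, 9.80 and 9.84 in FF. Liver exceeded brain by 0.67 ± 0.11 in FFPE (adjusted p = 0.000154, and 0.104 after quantile normalization of the arrays) and by 0.05 ± 0.11 in FF (adjusted p = 0.678). At 18 h its liver difference was -0.26 ± 0.14 (adjusted p = 0.26).

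The glutathione peroxidases Gpx1, Gpx3 and Gpx4 reduce peroxides with glutathione. Gpx1, the abundant cytosolic enzyme of liver and red cells, read 11.97, 11.75 and 11.21 in FFPE liver and 12.34, 12.19 and 11.90 in FF liver. In brain it read 7.98, 7.73 and 7.78 in FFPE and 10.00, 9.86 and 9.90 in FF. Its liver level was above that of brain in every array, by 3.81 ± 0.11 in FFPE (adjusted p = 4.34e-12) and 2.22 ± 0.11 in FF (adjusted p = 7.78e-10). Gpx1 fell in liver at 18 h by 0.60 ± 0.14 (adjusted p = 0.0128). The adjusted p became 0.0572 when only liver arrays were fitted. It was 0.117 when the 0 h array of FFPE liver was dropped and 0.076 when its 18 h array was dropped. Of the 4 red cell markers tested in the same liver comparison 2 rose, where 3.61% of all genes did. These were Hbb-b2 with 1.12 ± 0.13 (adjusted p = 0.000292) and Hba-a1 with 1.10 ± 0.20 (adjusted p = 0.0031). The others were Hba-a2 with -0.55 ± 0.19 (adjusted p = 0.0791) and Alas2 with -0.30 ± 0.15 (adjusted p = 0.215). Their part in the Gpx1 value was not tested.

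Gpx3, the secreted plasma enzyme made mainly in kidney, was at or above the array median in all 6 arrays of each tissue. It read 6.54, 6.41 and 6.37 in FFPE liver and 5.59, 5.77 and 5.76 in FF liver. In FFPE brain it read 6.11, 6.11 and 6.08, and in FF brain 5.26, 5.28 and 5.2. Among the probe sets that stand for the 10 genes, only those of Selenow and Gpx3 had FFPE above FF in every array of both tissues. For Gpx3 the difference was 0.73 in liver and 0.85 in brain. Liver was above brain by 0.34 ± 0.12 in FFPE (adjusted p = 0.0202) and 0.46 ± 0.12 in FF (adjusted p = 0.00286). The FFPE call was lost without any of 4 arrays, FFPE brain at 0, 3 or 18 h and FFPE liver at 0 h, with adjusted p from 0.069 to 0.154. At 18 h its difference in liver was 0.00 ± 0.14 (adjusted p = 1).

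Gpx4, which reduces lipid peroxides in membranes and limits ferroptosis, had values that depended on the probe set. The probe set that stands for it, 1456193_PM_x_at, read 9.58 to 10.10 in FFPE liver, 9.53 to 9.72 in FF liver, 9.65 to 9.70 in FFPE brain and 9.52 to 9.65 in FF brain, and neighbouring series overlapped. It passed none of the comparisons. The suffix x marks probes that can match other transcripts. The other probe set, 1451695_PM_a_at, read 8.32, 7.96 and 5.66 in FFPE liver and 10.50, 10.37 and 9.55 in FF liver. In brain this probe set read 5.98, 6.25 and 6.74 in FFPE and 10.54, 10.49 and 10.54 in FF. It fell in liver at 18 h (-1.81 ± 0.32, adjusted p = 0.00361 over all probe sets tested), against -0.33 ± 0.14 for the first probe set (adjusted p = 0.16). FFPE minus FF in brain was -4.20 for this probe set, against 0.10 for the other. Testing every probe set on its own was a choice made after seeing the data.

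**Figure D3:**
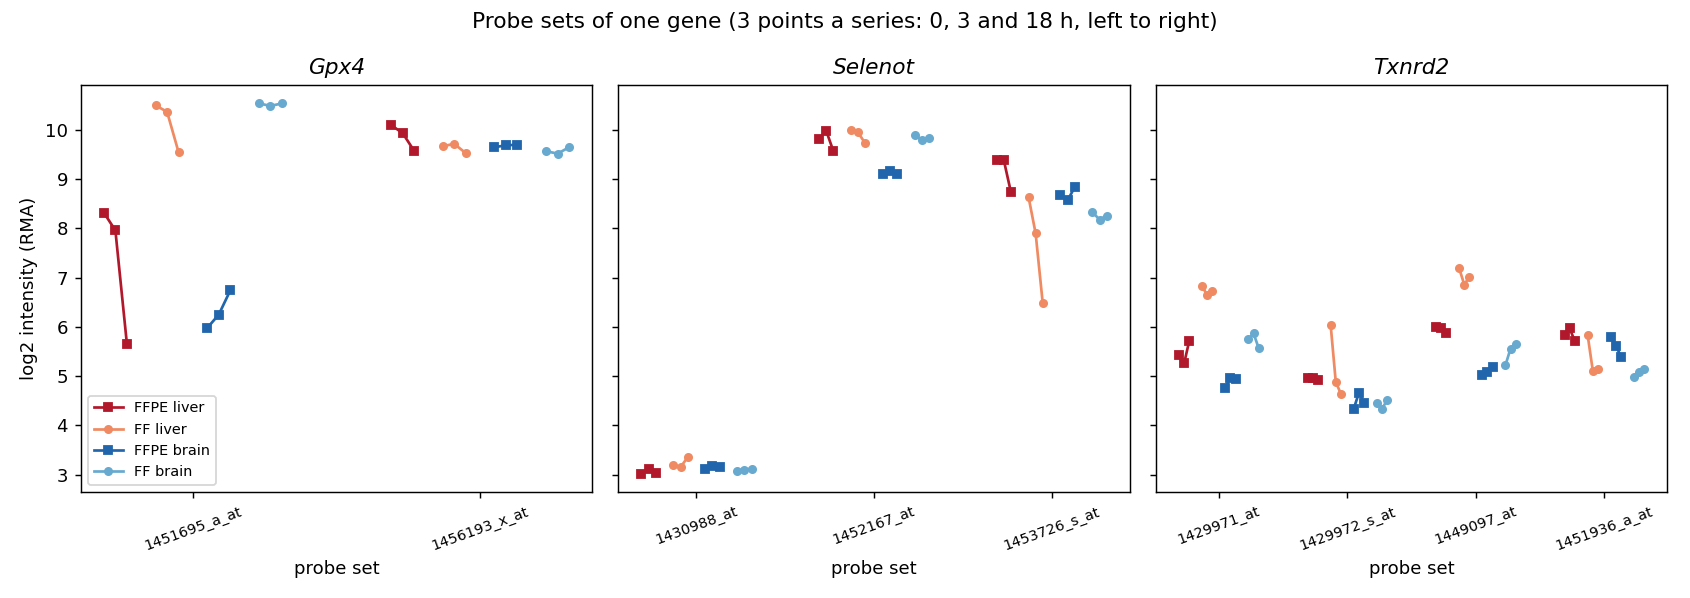
Log2 intensity (vertical axis) of every probe set of Gpx4, Selenot and Txnrd2 (horizontal axis). Each series has 3 joined points for 0, 3 and 18 h, red for liver and blue for brain, squares for FFPE and circles for FF. Within 1451695_PM_a_at of Gpx4, FFPE reads 5.66 to 8.32 and FF 9.55 to 10.54, and within 1456193_PM_x_at FFPE reads 9.58 to 10.10 and FF 9.52 to 9.72.

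Probe sets of Selenot and Txnrd2 also disagreed. The Selenot probe set 1453726_PM_s_at, whose suffix marks probes shared by several transcripts, read 9.40, 9.40 and 8.75 in FFPE liver and 8.64, 7.90 and 6.48 in FF liver. It fell at 18 h (-1.41 ± 0.26, adjusted p = 0.00424), against -0.26 ± 0.14 for the probe set that stands for the gene. In FF it was lower in liver than in brain (-0.58 ± 0.21, adjusted p = 0.0256), against 0.05 ± 0.11 for the brightest Selenot probe set. The remaining Selenot probe set, 1430988_PM_at, read 3.02 to 3.35 in all arrays, below every array median. For Txnrd2, FFPE minus FF in liver ran from -1.26 to 0.47 over its 4 probe sets.

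The thioredoxin reductases recycle oxidised thioredoxin, Txnrd1 in the cytosol and Txnrd2 in mitochondria. Txnrd1 read 9.15, 9.21 and 8.68 in FFPE liver and 8.73, 8.89 and 8.31 in FF liver. In brain it read 6.87, 7.04 and 6.98 in FFPE and 7.31, 7.61 and 7.57 in FF. Liver lay above brain by 2.05 ± 0.11 in FFPE (adjusted p = 1.51e-09) and 1.15 ± 0.11 in FF (adjusted p = 5.15e-07). The liver difference at 18 h was -0.45 ± 0.13 (adjusted p = 0.042). That call was lost after quantile normalization (-0.22, adjusted p = 0.364), in a fit of liver only (adjusted p = 0.121) and without any 1 of the 12 arrays (adjusted p from 0.0604 to 0.19).

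Txnrd2 read 6.0, 5.98 and 5.87 in FFPE liver and 7.19, 6.86 and 7.02 in FF liver. Its brain values were 5.02, 5.08 and 5.19 in FFPE and 5.22, 5.56 and 5.66 in FF. The 4 series did not overlap. Liver exceeded brain by 0.85 ± 0.12 in FFPE (adjusted p = 2.97e-05) and 1.54 ± 0.12 in FF (adjusted p = 6.01e-08). Its other probe sets, tested on their own, varied. The probe set 1451936_PM_a_at passed in neither preservation (0.24, adjusted p = 0.227 in FFPE and 0.29, adjusted p = 0.123 in FF). The probe set 1429972_PM_s_at passed in FF (0.75, adjusted p = 0.00687) and not in FFPE (0.46, adjusted p = 0.0767). Both comparisons passed for 1429971_PM_at (0.58, adjusted p = 0.00147, and 1.00, adjusted p = 1.29e-05). No time comparison of Txnrd2 passed.

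Dio1, the liver deiodinase that turns thyroxine into the active hormone and clears its inactive forms, had a larger liver change at 18 h than the other 9 genes, each read from the probe set that stands for it. It read 7.07, 6.99 and 4.98 in FFPE liver and 8.50, 8.67 and 7.28 in FF liver. In brain it read 3.86, 3.84 and 4.01 in FFPE and 3.59, 3.79 and 3.81 in FF, below the median of every brain array. The liver values at 18 h were the lowest of both series. Dio1 fell in liver at 18 h by 1.66 ± 0.18 (adjusted p = 0.000195), with -2.09 in FFPE and -1.22 in FF. The call held in every fit that left out 1 array (-2.03 to -1.28, adjusted p from 0.000107 to 0.00397). The change in liver minus that in brain was -1.84 ± 0.26 (adjusted p = 0.00416), but brain values this low had little room to fall. Liver minus brain was 2.44 in FFPE and 4.42 in FF. These are given as values only, since a gene that passed the filter through liver alone had to differ.

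Over the 10 genes, Dio1 included, 8 were higher and 1 lower in liver than in brain in FFPE. Of all genes tested, 63.5% passed in this comparison, 34.5% higher and 29% lower. In FF 6 were higher and 1 lower, where 74.1% of all genes passed, 36.5% higher and 37.5% lower. With most genes of the array differing between liver and brain, these counts are no result about the genes as a group. The count in FF was also 7 without the FF brain array at 0 h, in which 17 hepatocyte markers were highest. A raised brain value would make a gene that is higher in liver differ less. The unchanged count therefore cannot tell whether that array affected the differences.

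**Figure D4:**
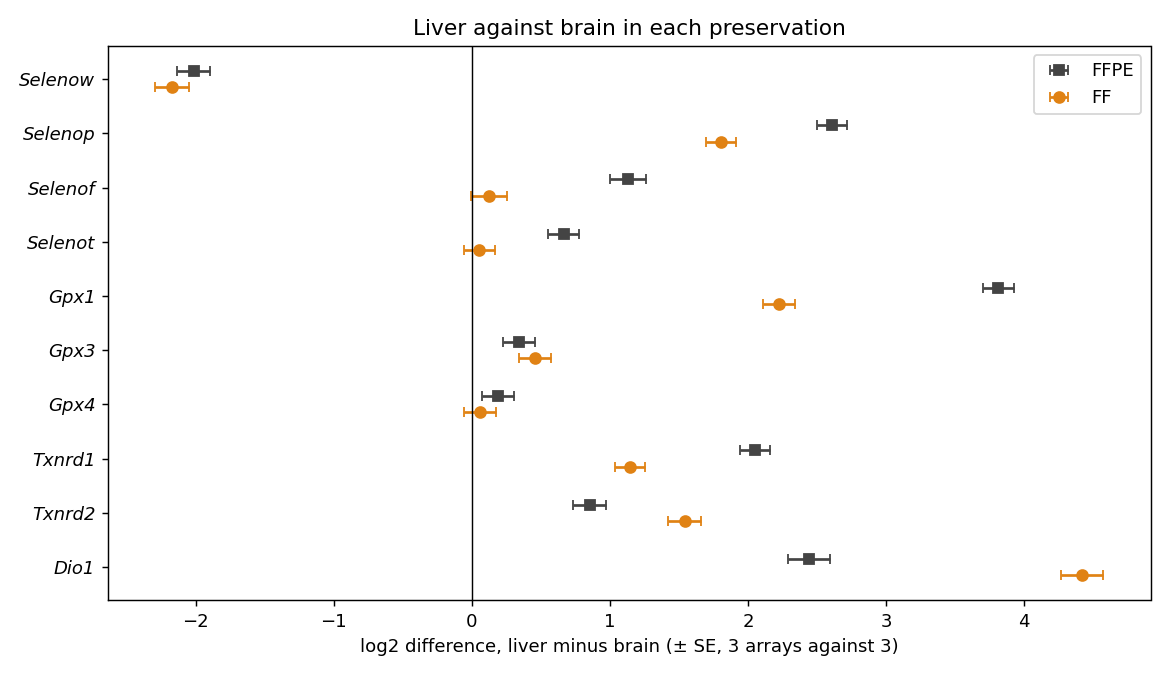
Log2 difference of liver minus brain (horizontal axis, ± SE, 3 arrays against 3) for the 10 genes (rows), with dark squares for FFPE and orange circles for FF. Selenow is the gene with negative values, -2.01 in FFPE and -2.17 in FF, and Dio1 reaches 2.44 and 4.42.

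At 3 h after death none of the 10 genes passed in either tissue, where 0.245% of all genes passed in liver (0.0765% higher and 0.168% lower) and 0.0765% in brain (0.0459% higher and 0.0306% lower). Their differences ran from -0.22 to 0.11 in liver and from -0.20 to 0.24 in brain, and 0 of the 10 in either tissue had an unadjusted p under 0.05 in limma. At 18 h 0 of the 10 passed in brain (-0.15 to 0.30), where 0.0306% of all genes did (0.00765% higher and 0.0229% lower), and again 0 had an unadjusted p under 0.05. The median SE over the 10 genes was 0.14 in these comparisons.

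At 18 h in liver 5 of the 10 genes fell (Dio1, Selenow, Selenof, Gpx1 and Txnrd1) and 0 rose, where 14.5% of all genes passed, 10.9% lower and 3.61% higher. The median over the 10 was -0.39, against -0.02 over all genes tested. With the mean of all probe sets of a gene, Gpx4 and Selenot fell as well. Fitting the 6 liver arrays by themselves gave 3. Dropping the 0 h array of FFPE liver left 1 gene (Dio1), and dropping its 18 h array left 2 (Dio1 and Selenow). These falls stood beside a Gapdh 3' minus 5' value that was larger at 18 h than at 0 h in both liver series. That of Actb was larger in FF liver, at 1.9 against 1.09, and not in FFPE liver, at -0.18 against -0.12. Of 9 tested markers of Kupffer cells, the macrophages of liver, 3 were lower at 18 h (Vsig4 with -0.88, C1qc with -0.75 and C1qa with -0.73) and 0 higher. Their summed intensity over 10 measured markers was 1307, 541 and 808 at 0, 3 and 18 h in FFPE liver and 2285, 999 and 1979 in FF liver. Of 7 endothelial markers 1 was higher (Kdr, 0.47), and 0 of 18 hepatocyte markers passed. The SE of the hepatocyte markers ran from 0.13 (Tat) to 0.52 (Cyp3a11), against a median of 0.14 over the 10 genes. Each gene has 1 spread over all 12 arrays, brain included. Falls of the size seen in the 10 genes could therefore be missed in many of these markers, and their count of 0 decides little. The part of RNA quality and of these cell types in the falls was not tested. For the change in liver minus that in brain at 18 h, 1 of the 10 passed (Dio1, with the limit given above), where 4.48% of all genes did (0.52% higher and 3.96% lower). With the mean of all probe sets of a gene it was 4. At 3 h 0 of the 10 passed for that difference (0 with an unadjusted p under 0.05), where 0.0153% of all genes did (0.00765% in each direction).

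**Figure D5:**
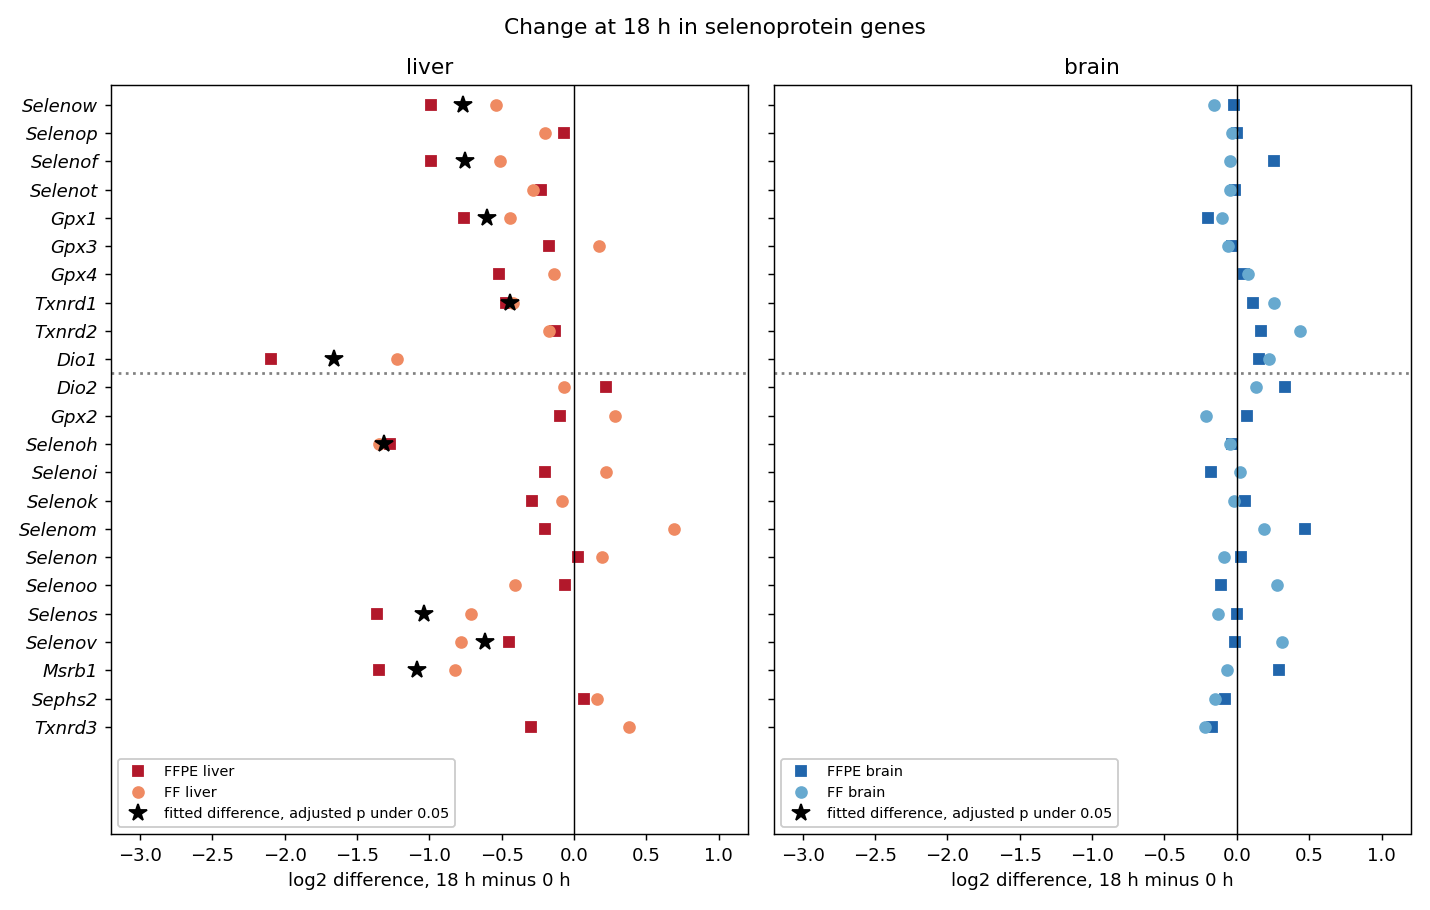
Log2 difference of 18 h minus 0 h (horizontal axis) in liver (left) and brain (right) for the 10 genes (above the dotted line) and the other 13 selenoprotein genes with a probe set. Squares are FFPE, circles FF, and stars the fitted difference where the adjusted p was under 0.05. Dio1 at -1.66 and Selenoh at -1.31 lie farthest to the left among the stars in liver, and brain has no star.

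Of the 14 other selenoprotein genes of the mouse, 13 had a probe set, and all 13 were tested. At 18 h in liver 4 of them were past the threshold, all lower, with a median of 0.01, where 10.9% of all genes were lower. Selenoh, a nucleolar redox protein, fell by 1.31 ± 0.14 (adjusted p = 0.000182). It read 6.22, 5.62 and 4.95 in FFPE liver and 7.51, 7.21 and 6.16 in FF liver. Msrb1, which repairs oxidised methionine, fell by 1.09 ± 0.19 (adjusted p = 0.00245), and Selenos, part of the machinery that removes misfolded proteins from the endoplasmic reticulum, by 1.04 ± 0.17 (adjusted p = 0.00157). The other was Selenov, a gene best known from testis, with a difference of -0.62 at levels of 4.39 to 5.18 in liver. It passed the filter through 3 liver arrays of 0 and 3 h only, so its lower level at 18 h is a value and supports nothing. In brain 0 of the 13 passed at either time, where 0.0765% of all genes did at 3 h and 0.0306% at 18 h. In liver at 3 h 0 of them passed too, where 0.245% of all genes did.

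Between tissues, 6 of these 13 were higher and 3 lower in liver in FFPE, and 6 higher and 4 lower in FF, where 63.5% and 74.1% of all genes passed. The higher genes in FF include Selenov, which lay below the median of all 6 brain arrays. It passed the filter only through liver, so its call is a value with no test. Dio2 is among the lower genes in both. Dio2, the deiodinase that makes active thyroid hormone within brain, differed by -4.13 in FFPE and -3.99 in FF, the reverse of Dio1. It lay below the median of all 6 liver arrays and passed the filter only through brain, so these are values with no test. Selenom, a protein of the endoplasmic reticulum abundant in neurons, was lower in liver (-1.96 ± 0.16 in FFPE, adjusted p = 1.3e-07, and -4.16 ± 0.16 in FF, adjusted p = 3.39e-11). Sephs2, itself a selenoprotein that makes the selenium donor, was higher in liver by 4.39 ± 0.11 in FFPE (adjusted p = 1.25e-12) and 3.73 ± 0.11 in FF (adjusted p = 4.04e-12). In FFPE minus FF the 13 ran from -1.52 to 1.01 in liver and from -2.84 to 0.63 in brain. These values and those of Selenow, 4.43 and 4.27, come from the probe set that stands for each gene. Among other probe sets of the 10 genes, Gpx4 1451695_PM_a_at had -2.83 in liver and -4.20 in brain. Selenot 1453726_PM_s_at had 1.51 and 0.44. That contrast chose the genes, and nothing is read from it.

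Genes that build selenocysteine into proteins were tested as a list. Of 9 listed genes 7 had a probe set under the listed symbol, and 0 of these 7 passed in either tissue at either time. The shares of all genes that passed at 3 and 18 h were 0.245% and 14.5% in liver and 0.0765% and 0.0306% in brain. In FFPE 5 of the 7 were higher and 0 lower in liver than in brain, and in FF 5 were higher and 1 lower. Of all genes, 34.5% were higher and 29% lower in FFPE, and 36.5% and 37.5% in FF. Sepsecs, which converts the serine on the tRNA to selenocysteine, was higher by 0.95 ± 0.14 in FFPE (adjusted p = 3.64e-05) and 2.86 ± 0.14 in FF (adjusted p = 3.42e-10). Eefsec, the dedicated elongation factor, was higher by 1.02 ± 0.12 in FFPE (adjusted p = 5.67e-06) and 1.16 ± 0.12 in FF (adjusted p = 1.21e-06).

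The partners of the selenoenzymes gave the following counts in liver at 18 h. Of 8 tested thioredoxin and peroxiredoxin genes 4 fell, with a median of -0.43, where 10.9% of all genes were lower. They were the mitochondrial peroxidase gene Prdx3 (-0.76 ± 0.15, adjusted p = 0.00596), the cytosolic Prdx1 (-0.63 ± 0.15, adjusted p = 0.014) and Prdx2 (-0.53 ± 0.14, adjusted p = 0.0244), and the mitochondrial thioredoxin gene Txn2 (-0.48 ± 0.15, adjusted p = 0.0479). Of 6 tested genes of glutathione supply 0 passed, with a median of -0.18, and all 6 were higher in liver than in brain in FFPE and 5 in FF, where 34.5% and 36.5% of all genes were higher. Gpx7, a peroxidase with cysteine in place of selenocysteine, lay below the median of all 6 liver arrays. Of 8 tested genes of thyroid hormone transport and action, 0 passed in liver at 18 h, where 14.5% of all genes did. In brain 1 rose at 3 h and at 18 h (Ttr, the thyroxine carrier of choroid plexus), where 0.0459% and 0.00765% of all genes rose.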

How the data were processed

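Expression was measured on Affymetrix MG-430 PM array strips, 1 array for each of 12 conditions. The deposited values are log2 intensities, which the authors computed by RMA (background correction, quantile normalization, probe summary). The submitters' processing notes name Affymetrix Expression Console as the software. Whether all arrays went through 1 run is not given in the sources used here. No depth exists for arrays, and their number limits the precision. Values are comparable within a gene and not between genes.

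Of 45141 probe sets, 104 controls were set aside, 28898 had 1 gene in the platform annotation, 551 several and 15588 none. Differences were fitted with limma 3.58.1 in R 4.3.3 on all 12 arrays, with 8 coefficients (a mean for each of 4 series, plus 2 time effects per tissue) and 4 residual degrees of freedom. Time effects rest on 2 arrays a time, 1 of each preservation, so p-values measure disagreement between arrays, not between animals. The residual degrees of freedom hold only the disagreement of FFPE and FF in the time changes of a tissue. The comparisons of liver with brain use the same spread, so their p-values are not those of replicates either. Tests were two-sided, with Benjamini-Hochberg adjustment over the 13073 genes tested and a threshold of 0.05. The script was tested on simulated data. Genes named outside the 10 are, per list and comparison, up to 4 past the threshold or up to 3 as values, and the 5 most like Selenow. The members and lists were chosen with earlier results of these data known.

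Alternatives were quantile normalization, no filter, the mean of probe sets, the tissue's own arrays, leaving out each array, and, added after seeing the data, every probe set on its own. Sequences came from RefSeq windows, of which the 10 genes had 17.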

Additional observations from a re-analysis of the deposited data

Results flagged for a closer look

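The change at 18 h in liver minus that in brain passed the test for Dio1 (-1.84), and for the other selenoprotein genes Selenoh (-1.27), Msrb1 (-1.20) and Selenos (-0.97), with adjusted p = 0.00416, 0.00653, 0.0251 and 0.035 in limma. Each of them was lower at 18 h in both liver series. For Dio1 the test is limited, since its brain values of 3.59 to 4.01 lay below the median of all 6 brain arrays and had little room to fall. Where fixed and frozen arrays lay on opposite sides in the tissues at all 3 times, the difference between tissues was not tested, since that contrast chose the genes. FFPE minus FF was -1.80 in liver and 0.17 in brain for Dio1, and 0.37 in liver and -0.53 in brain for Txnrd1. After quantile normalization the brain values turned to -0.05 for Dio1 and 0.37 for Txnrd1, so both signs in brain depend on the scaling. Selenov had -0.21 in liver and 0.63 in brain, and Txnrd3, a reductase gene best known from testis, -0.47 and 0.33. These 2 kept their signs after quantile normalization, at -0.38 and 0.37 for Selenov and -0.42 and 0.22 for Txnrd3. Selenov, however, lay below the median of all 6 brain arrays and reached it in 3 of 6 liver arrays. Its liver difference at 18 h was only -0.01. For Txnrd3, FFPE and FF arrays overlapped in both tissues, and the SD over the 3 matched times was 0.47 in liver and 0.31 in brain. Only the brightest of its 3 probe sets was read.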

How the results depend on the processing

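Selenow in FFPE minus FF stayed at 4.31 to 4.53 in liver and 4.23 to 4.30 in brain when 1 array was left out, and quantile normalization moved it to 4.85 in brain and 4.33 in liver. For liver at 18 h the count of 5 became 3 with the liver arrays alone and ran from 1 to 4 without 1 array. With the mean of probe sets Gpx4 (-1.07, adjusted p = 0.0108 in limma) and Selenot (-0.53, adjusted p = 0.0241) passed as well. So did 1 probe set of each of these genes when every probe set was tested on its own. The change at 18 h in liver minus brain, with 1 gene, became 4 with the mean of probe sets and 3 with every probe set on its own, and ran from 1 to 3 without 1 array. The other counts of the 10 genes stayed within 1.5 times. Counts over all genes moved more. Brain at 3 h (10) gave 4 with the mean of probe sets, 5 with brain arrays alone and 2 to 39 without 1 array; brain at 18 h (4) gave 2 with no filter, 2 with the mean, 1 with brain arrays alone and 2 to 31. Liver at 3 h (32) gave 15 after quantile normalization, 19 with no filter, 21 with the mean, 0 with liver arrays alone and 0 to 83. Liver at 18 h (1893) gave 1047 with liver arrays alone and 1115 to 1905, and the split of 472 higher and 1421 lower became 601 and 1039 after quantile normalization. For the change in liver minus brain, 3 h (2) gave 5 after quantile normalization, 1 with no filter and 1 to 24, and 18 h (586) gave 326 after quantile normalization (81 higher, 245 lower, against 68 and 518) and 48 to 1152. With every probe set on its own these 6 counts were 21, 8, 72, 3896, 18 and 1253 of 29688 probe sets. Where a call was lost, the cause was not tested. Quantile normalization moved the median of all genes for FFPE minus FF from -0.17 to -0.08 in liver and from -0.42 to -0.10 in brain, and for FF liver minus FF brain from 0.04 to 0.17. No paired analysis was possible because the labels give no replicate numbers to block on; FFPE and FF arrays were matched by tissue and time, not by replicate.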
